A study of Chromochloris zofingiensis with 6 samples.

Results

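Cz17 is the name shared by 270 of the 15364 gene IDs in a count table from the green microalga Chromochloris zofingiensis, and is read here as chromosome 17 of its nuclear genome. The IDs were taken by their first letters alone (Cz17g). The chromosome itself was chosen by the share of its genes that rose by 2-fold or more with levofloxacin, so every count of calls on it is a description and no test of the chromosome is given. The reading of Cz17 as a chromosome and of the ID numbering as gene order follows the published annotation of the species. The files state neither, and coordinates were not used here.

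Cultures given 10 mg/L levofloxacin, a fluoroquinolone antibiotic, gave 3 libraries (replicates 1 to 3, labelled Y10), and cultures without it gave 3 control libraries (replicates 1 to 3, labelled Y0). All 6 came from strain ATCC 30412 grown in the dark at 25 °C with 30 g/L glucose, so growth was heterotrophic, and RNA was taken on day 15. No label ties a replicate number to its own culture, and p-values here may therefore reflect in part a technical spread among the 6 libraries. In bulk RNA of this kind, fewer cells of one state and less RNA per cell cannot be told apart.

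Fluoroquinolones bind bacterial DNA gyrase and topoisomerase IV, enzymes that manage DNA supercoiling and strand passage. Algal cells have organelles of bacterial descent with their own genomes, while Cz17 lies in the nucleus. Along a nuclear chromosome, neighbouring genes can share a stretch of open or closed chromatin, a promoter region read in both directions, or an origin by tandem duplication, and transcripts of neighbours are known to vary together in many eukaryotes. The files give each gene as an ID with no name or function, so genes are described below by ID, place in the order, coding length and level, with no role.

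The libraries held 28482776 to 33005815 reads assigned to genes with levofloxacin and 29311743 to 36223195 in controls. CPM is the count divided by the column total, times 1e6. FPKM is the authors' value per kilobase of gene, used wherever levels of different genes are compared. The control libraries stood farther apart than the levofloxacin libraries: the median coefficient of variation of CPM over the tested Cz17 IDs was 9.31% with levofloxacin and 19.7% in controls. A gene was called where edgeR's quasi-likelihood test over the whole table gave a Benjamini-Hochberg adjusted p under 0.05. Of the 270 Cz17 IDs, 241 had enough counts to be tested. The other 29 never passed 20 counts in a library, and 4 of them had 0 counts in all 6.

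With levofloxacin, 33 of the 241 tested Cz17 IDs rose (13.7%, against 10.1% of all tested IDs) and 31 fell (12.9%, against 12.1%). By 2-fold or more, 15 rose (6.22%, against 2.51% of all tested IDs) and 17 fell (7.05%, against 5.06%). Since the first of these shares picked the chromosome, nothing is read from it. The remaining 177 IDs did not pass. The chromosome did not move as a whole: the median log2 fold change was 0.02, with quartiles of -0.38 and 0.39, against a median of 0.00 and quartiles of -0.32 and 0.29 over all tested IDs. In 56 Cz17 IDs (23.2%, against 22.6% of all tested IDs) every levofloxacin library lay above every control. Counting both directions, the groups did not overlap in 104 Cz17 IDs (43.2%, against 42.6% of all tested IDs).

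**Figure D1:**
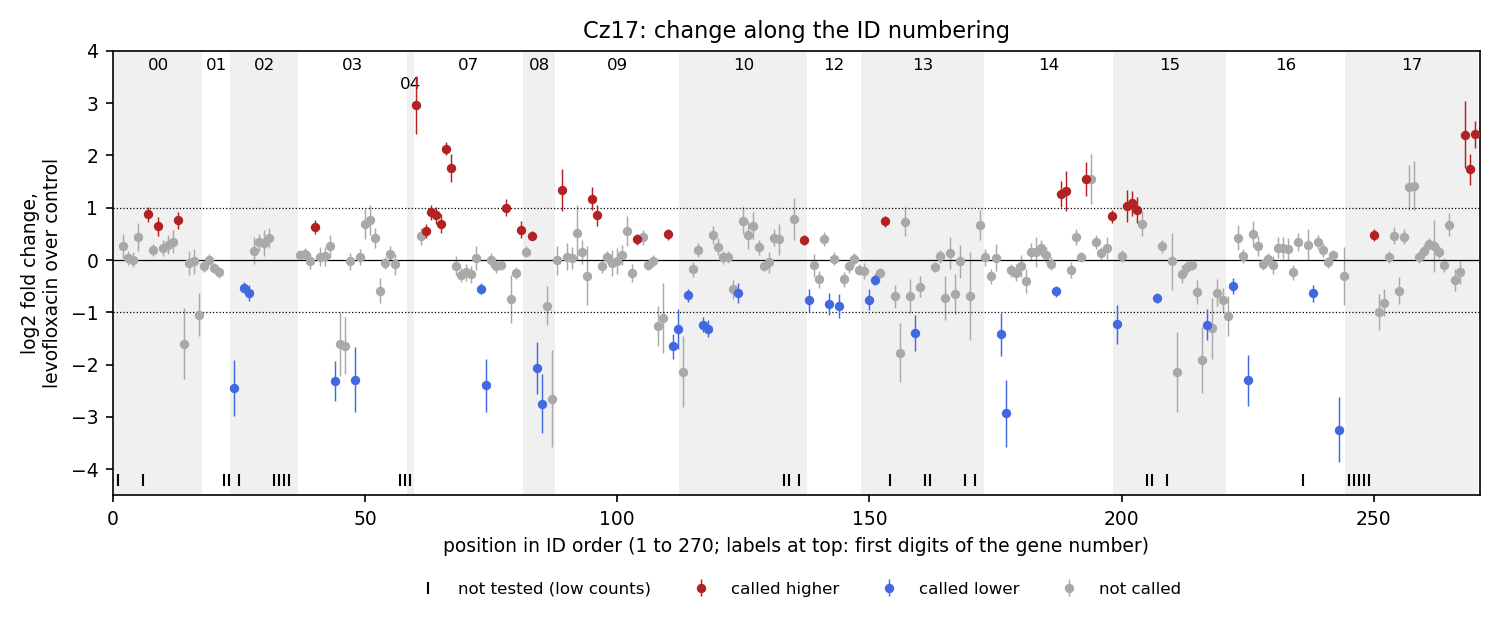
Log2 fold change (levofloxacin over control, edgeR, with standard error) of 240 tested Cz17 IDs against their position in the ID order; grey bands mark the blocks of the numbering and dotted lines mark 2-fold. Cz17g02130, with 0 counts in every control, is left off. Block 07 held 9 of the 33 called rises. Rises of 2-fold or more lay in 6 blocks and falls of 2-fold or more in 10.

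The numbering of Cz17 falls into 15 blocks that differ in the first digits of the gene number, and within each block the numbers run in steps of 10. No IDs are numbered between blocks 04 and 07 or between blocks 10 and 12. The 15 rises of 2-fold or more lay in 6 blocks and the 17 falls in 10. Block 07 held 9 of the 33 rises and 4 of those of 2-fold or more among 22 tested IDs, with 2 falls. Block 00 held 3 rises and 0 falls among 15 tested IDs, and block 17 held 4 rises and 0 falls among 21. Block 16 held 4 falls and 0 rises among 23 tested IDs, and block 12 held 3 falls and 0 rises among 11. These counts include changes of less than 2-fold and stand beside 10.1% called higher and 12.1% called lower over all tested IDs, and with so few IDs a block nothing is read from them.

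The longest unbroken row of calls in one direction was of 6 rises, against at most 5 calls on any other chromosome. It ran from Cz17g07030 to Cz17g07080, with log2 fold changes of 0.55 to 2.13. Added together, the 6 genes had 1635, 1698 and 1608 CPM in levofloxacin replicates 1, 2 and 3, against 517, 750 and 632 CPM in control replicates 1, 2 and 3. Each of the 6 genes had every levofloxacin library above every control. All 6 were still called without control replicate 1 or 2, 3 of them without control replicate 3 or levofloxacin replicate 2, and 2 of them without levofloxacin replicate 1 or 3.

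With levofloxacin, but not in controls, most of that sum came from Cz17g07070, with a coding length of 1272 bases. It had 934, 964 and 894 CPM in levofloxacin replicates 1, 2 and 3, against 184, 242 and 195 CPM in control replicates 1, 2 and 3. The lowest levofloxacin library was 3.69 times the highest control, a wide gap with little spread on either side. Its log2 fold change was 2.13 ± 0.12 (SE; edgeR, adjusted p = 0.00034), the lowest adjusted p among the 15 rises, and its level was 732 ± 27.6 FPKM with levofloxacin and 163 ± 24.5 FPKM in controls (SD, n = 3 each).

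The next gene in the order, Cz17g07080 (2406 bases), had 18.2, 26.4 and 12.9 CPM in levofloxacin replicates 1, 2 and 3, against 5.77, 5.85 and 4.92 CPM in control replicates 1, 2 and 3. Here the controls were close together and the levofloxacin libraries were not. The log2 fold change was 1.75 ± 0.27 (SE), and the level was 7.96 ± 2.83 FPKM with levofloxacin and 2.29 ± 0.214 FPKM in controls (SD, n = 3 each). Past it the row ended sharply. Cz17g07090 had a log2 fold change of -0.11 ± 0.19 (SE) and was not called.

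The other members of the row rose by less than 2-fold. Cz17g07040 had 50.7, 56.0 and 49.0 CPM with levofloxacin, against 20.4, 34.4 and 26.2 CPM in controls, a log2 fold change of 0.91 ± 0.15 (SE). Cz17g07050, the longest of the row at 3573 bases, had 261, 325 and 263 CPM with levofloxacin, against 118, 195 and 148 CPM in controls (0.85 ± 0.17, SE). In both, control replicate 2 was the closest to the levofloxacin libraries. Cz17g07030 and Cz17g07060 had log2 fold changes of 0.55 ± 0.13 and 0.70 ± 0.18 (SE). Just before the row, Cz17g07020 had 229, 176 and 269 CPM with levofloxacin, against 128, 186 and 166 CPM in controls. Its groups overlapped and it was not called (log2 fold change 0.45 ± 0.17, SE; edgeR, adjusted p = 0.085).

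Cz17g07010, the first ID of the block, was called higher at very low counts. It had 25, 12 and 32 counts in levofloxacin replicates 1, 2 and 3, against 2, 4 and 3 counts in control replicates 1, 2 and 3 (log2 fold change 2.96 ± 0.55, SE). Farther along the block, Cz17g07190 (1122 bases) had 90.4, 114 and 109 CPM with levofloxacin, against 37.3, 54.6 and 60.4 CPM in controls. It stood nearly at the 2-fold line, with a log2 fold change of 1.00 ± 0.17 (SE), and neither of its neighbours was called: Cz17g07180 had -0.10 ± 0.10 and Cz17g07200 had -0.75 ± 0.46 (SE).

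**Figure D2:**
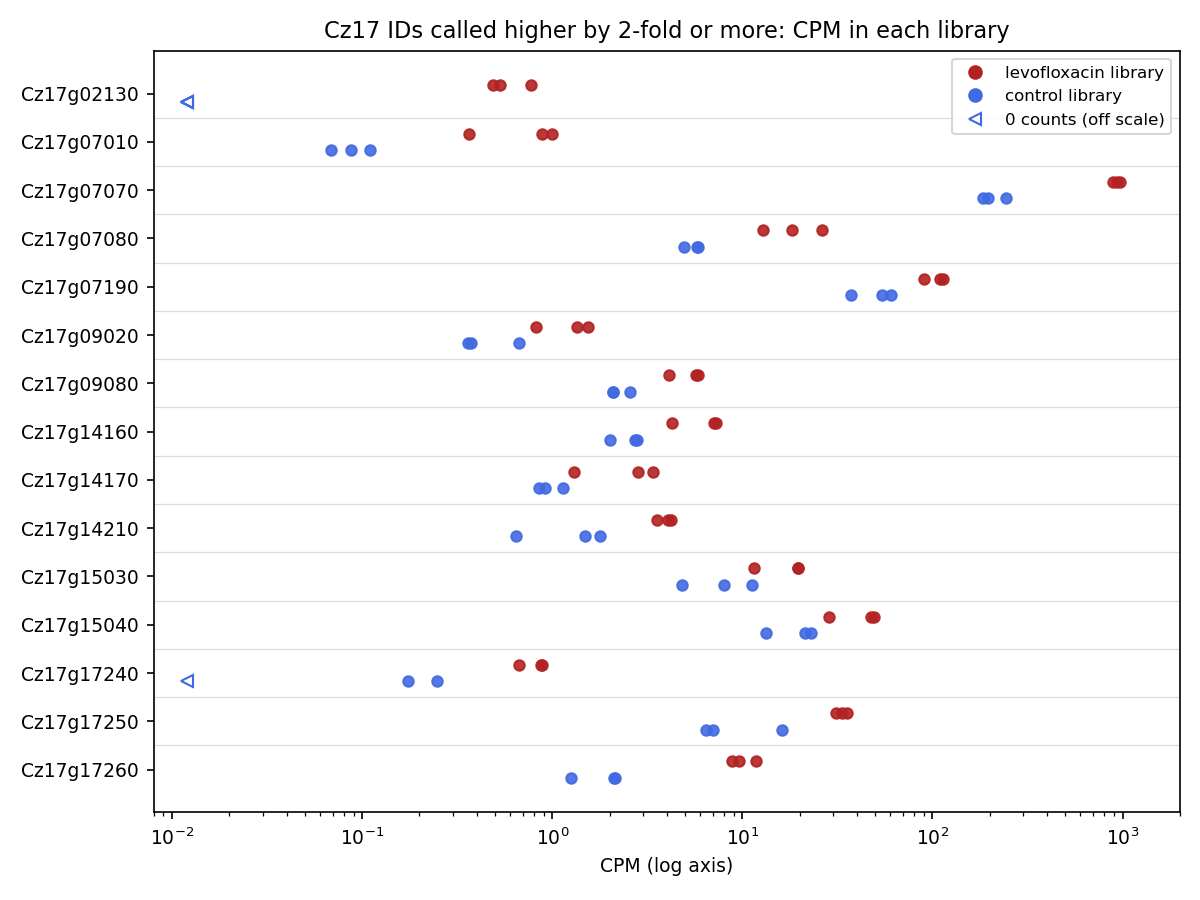
CPM (log axis) of the 15 Cz17 IDs called higher by 2-fold or more, with 1 point per library, levofloxacin above control in each row; open triangles are libraries with 0 counts. The groups do not overlap in any of the 15, and the gap is widest in Cz17g17260, Cz17g07070 and Cz17g07010 among the genes with counts in every library.

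A shorter row of rises stood in block 15. Cz17g15030, Cz17g15040 and Cz17g15050, with coding lengths of 402, 534 and 807 bases, had nearly the same fold change: 1.03 ± 0.31, 1.09 ± 0.24 and 0.96 ± 0.24 on the log2 scale (SE). Cz17g15040 had 47.6, 28.7 and 49.4 CPM in levofloxacin replicates 1, 2 and 3, against 13.4, 21.3 and 22.9 CPM in control replicates 1, 2 and 3. Cz17g15030 had 19.7, 11.5 and 19.6 CPM with levofloxacin, against 4.81, 7.98 and 11.3 CPM in controls, and Cz17g15050 had 60.8, 35.9 and 60.8 CPM, against 18.0, 28.2 and 32.7 CPM. All 3 were lower in levofloxacin replicate 2 than in the other levofloxacin libraries and lowest in control replicate 1 among controls.

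The separation of this row rested on a narrow margin. In Cz17g15030 the lowest levofloxacin library was 1.02 times the highest control, the smallest margin among the 15 rises, and in Cz17g15040 it was 1.25 times. The next gene, Cz17g15060, was not called (log2 fold change 0.70 ± 0.24, SE; edgeR, adjusted p = 0.070), while on the other side Cz17g15020 had 0.08 ± 0.11 (SE). Without levofloxacin replicate 1 or 3, 0 of the 3 genes were called.

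The numbering of Cz17 closed with another row of rises, Cz17g17240 to Cz17g17260. Cz17g17260 (1110 bases) had 9.58, 8.79 and 11.8 CPM in levofloxacin replicates 1, 2 and 3, against 2.12, 2.13 and 1.25 CPM in control replicates 1, 2 and 3. The lowest levofloxacin library was 4.13 times the highest control, the widest margin among the 15 where it could be formed, and the log2 fold change was 2.41 ± 0.26 (SE; edgeR, adjusted p = 0.0042). Cz17g17250 (831 bases) had 31.0, 33.4 and 35.6 CPM with levofloxacin, against 6.41, 16.1 and 7.05 CPM in controls, so that control replicate 2 stood apart from the other controls (log2 fold change 1.74 ± 0.30, SE). Cz17g17240 had 25, 22 and 28 counts with levofloxacin, against 0, 9 and 6 counts in controls. Cz17g17230, the neighbour before the row, had -0.24 ± 0.22 (SE) and was not called. Without levofloxacin replicate 1 or 3, 1 of the 3 genes was called, and Cz17g17240 was also lost without levofloxacin replicate 2 or control replicate 3.

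In block 14 the rises of 2-fold or more were of genes with little RNA. Cz17g14160 and its neighbour Cz17g14170 had log2 fold changes of 1.26 ± 0.25 and 1.32 ± 0.38 (SE). Cz17g14160 had 7.27, 4.27 and 7.08 CPM with levofloxacin, against 2.01, 2.79 and 2.74 CPM in controls, and Cz17g14170 had 3.41, 1.30 and 2.84 CPM, against 0.853, 0.911 and 1.14 CPM. Levofloxacin replicate 2 was again the lowest of its group in both. The neighbour on the near side, Cz17g14150, fell, with 77.4, 85.0 and 85.2 CPM with levofloxacin, against 119, 117 and 126 CPM in controls (log2 fold change -0.60 ± 0.11, SE).

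Cz17g14210 had 4.04, 3.58 and 4.21 CPM with levofloxacin, against 0.648, 1.49 and 1.78 CPM in controls (log2 fold change 1.55 ± 0.33, SE). Its neighbour Cz17g14220 had the same fold change, 1.55 ± 0.47 (SE), and missed the threshold (edgeR, adjusted p = 0.051). It passed in some of the other fits, with adjusted p from 0.011 to 0.16 over the fits tried. Cz17g14220 had 74, 54 and 89 counts with levofloxacin, against 7, 35 and 38 counts in controls.

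The other rises of 2-fold or more were single or in a pair at low levels. Cz17g09080 had 4.11, 5.73 and 5.84 CPM with levofloxacin, against 2.08, 2.57 and 2.10 CPM in controls (log2 fold change 1.17 ± 0.22, SE), and the gene after it, Cz17g09090, rose by 0.86 ± 0.20 (SE) on the same scale. Cz17g09020 had 44, 27 and 43 counts with levofloxacin, against 11, 13 and 23 counts in controls (1.34 ± 0.40, SE; edgeR, adjusted p = 0.049). This call was lost in 11 of the 17 other fits, every one with a single library left out among them, with adjusted p from 0.038 to 0.16. Cz17g02130 (3549 bases) had 22, 16 and 17 counts in levofloxacin replicates 1, 2 and 3, against 0 in each control. Over the pooled groups this is at least 19.6-fold higher than the 3 counts that a total of 0 allows, counting error only.

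Across the 15 rises, 8 had a mean under 5 CPM, and the middle gene had a mean of 5.35 FPKM, against 28.8 FPKM for the middle tested Cz17 ID. Neighbours were taken among tested IDs, skipping untested ones and gaps in the numbering, as from Cz17g03200 to Cz17g07010. A called neighbour in the same direction stood beside 10 of the 15 rises, and a gene called in the opposite direction beside 1. Most of the 10 stood beside another of the 15. The same count over the rises of all tested IDs is not given here, so nothing is read from it. The rises had 19 neighbours, taken in the same way, that were not themselves among the 15. Of these, 3 were called higher, 1 was called lower and 15 were not called, and their median log2 fold change was 0.06. Over all tested IDs 10.1% were called higher and 12.1% lower. Just outside the 2-fold line among called genes were Cz17g15050 (0.96), Cz17g07040 (0.91) and Cz17g00070 (0.87), and just inside were Cz17g07190 (1.00), Cz17g15030 (1.03) and Cz17g15040 (1.09).

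The order of the libraries within each group is tied to the choice by fold, since a low control raises the fold, and is given as a description. Control replicate 1 was the lowest control in 12 of the 15 rises, against 54.8% of all tested IDs, and levofloxacin replicate 2 was the lowest of its group in 10 of the 15, against 41.6% of all tested IDs. With 1 library left out, calls fell away over the whole table too. Of the 15, 5 were still called without levofloxacin replicate 1, 10 without replicate 2 and 3 without replicate 3, where 0.746%, 3.33% and 0.711% of all tested IDs were called higher. Without control replicate 1, 2 or 3 the number was 12, 12 and 11, where 12.2%, 14.3% and 3.83% of all tested IDs were called higher. Over the fits tried, the fold change of Cz17g17250, 1 of those lost, stayed between 1.55 and 2.21 on the log2 scale. Other lost rises ranged more widely, such as Cz17g09020 (0.69 to 1.69) and Cz17g17240 (1.25 to 3.01). Both low ends were on log2(FPKM + 1). Cz17g07070, Cz17g07080 and Cz17g17260 were called in all 17 other fits tried (other scalings, filters, tests and sets of libraries).

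A further 3 genes were at least 2-fold higher without passing: Cz17g14220 (described above), Cz17g17130 and Cz17g17140. Cz17g17130 (1806 bases) is the second most abundant Cz17 transcript per length. It had 2914, 4051 and 3617 CPM in levofloxacin replicates 1, 2 and 3, against 611, 2478 and 945 CPM in control replicates 1, 2 and 3. Its groups did not overlap, but control replicate 2 lay far above the other controls. The log2 fold change of 1.39 ± 0.43 (SE) missed the threshold (edgeR, adjusted p = 0.053). Cz17g17130 passed in some of the other fits, with adjusted p from 0.0016 to 0.15 over the fits tried. Beside it, Cz17g17140 was higher by 1.42 ± 0.47 on the log2 scale (SE; edgeR, adjusted p = 0.064) and also did not pass.

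For falls of 2-fold or more the order of the controls is likewise tied to the choice by fold, since a high control lowers the fold. As a description, control replicate 1 was the highest control in 14 of the 17, against 25.1% of all tested IDs. Control replicate 2 was the lowest in 12, against 19.6% of all tested IDs. The lowest fold change on the chromosome was that of Cz17g16230 (1446 bases), with 2.32, 1.33 and 0.687 CPM in levofloxacin replicates 1, 2 and 3, against 22.4, 6.13 and 9.87 CPM in control replicates 1, 2 and 3 (log2 fold change -3.25 ± 0.62, SE; edgeR, adjusted p = 0.015). Every control lay above every levofloxacin library, but the controls differed among themselves by more than 3-fold. With 1 library left out, calls of falls dropped over the whole table too. Of the 17, 7 were still called without control replicate 3, where 4.34% of all tested IDs were called lower. Without levofloxacin replicate 1, 2 or 3 the number was 4 each time, where 0.983%, 2.71% and 0.962% were called lower. Without control replicate 1 or 2 it was 15 and 17, where 13.1% and 16.4% were called lower.

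Some neighbouring falls had the same order of controls, given as a description. Cz17g08030 had 84.5, 46.9 and 85.1 CPM with levofloxacin, against 496, 148 and 198 CPM in controls (log2 fold change -2.06 ± 0.50, SE). Cz17g08040, next to it, had 38.5, 20.5 and 21.1 CPM with levofloxacin, against 309, 80.3 and 109 CPM in controls (-2.74 ± 0.56, SE). Cz17g08050 and Cz17g08060 beyond them had -0.87 ± 0.37 and -2.65 ± 0.92 (SE) and were not called. In Cz17g08060 control replicate 1 had 518 CPM and the other controls 56.1 and 68.0 CPM.

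Of the other falls named by the rule, Cz17g07150 had 58.7, 34.4 and 29.6 CPM with levofloxacin, against 355, 113 and 135 CPM in controls (log2 fold change -2.39 ± 0.51, SE). Cz17g03120 had 28.8, 17.8 and 27.0 CPM, against 207, 32.5 and 93.5 CPM (-2.28 ± 0.62, SE), and Cz17g03080 had 11.2, 7.91 and 5.12 CPM, against 48.8, 22.7 and 42.0 CPM (-2.30 ± 0.38, SE). Both Cz17g07150 and Cz17g03120 had their highest value in control replicate 1 by a wide margin. Cz17g14050, Cz17g02010 and Cz17g16050 had log2 fold changes of -2.93 ± 0.63, -2.44 ± 0.54 and -2.30 ± 0.49 (SE), with fewer than 20 CPM in every library.

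A smaller set fell with controls that were close together. Cz17g10050 had 294, 207 and 277 CPM with levofloxacin, against 509, 614 and 649 CPM in controls (log2 fold change -1.23 ± 0.15, SE; edgeR, adjusted p = 0.0062), and its neighbour Cz17g10060 had 31.6, 29.5 and 25.9 CPM, against 80.4, 64.8 and 62.1 CPM (-1.31 ± 0.16, SE). These IDs, and Cz17g09240 with 2.98, 2.51 and 3.12 CPM against 10.5, 8.36 and 7.13 CPM (-1.65 ± 0.23, SE), were called lower in all 17 other fits. The other 14 falls were not. Cz17g10050 and Cz17g10060 are outside the rule for named genes and were picked for this after their values were seen.

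A further 13 genes were at least 2-fold lower without passing. Control replicate 1 was the highest control in 12 of them, against 25.1% of all tested IDs. These genes were picked by fold, which a high control lowers, so the count is a description. One of them, Cz17g15130, had 136, 65.2 and 62.6 CPM with levofloxacin, against 779, 99.9 and 187 CPM in controls. It was picked after its values were seen. Its groups overlapped, and the log2 fold change was -2.14 ± 0.76 (SE; edgeR, adjusted p = 0.078).

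Stretches were also read by fold alone. Each held at least 4 neighbouring tested IDs with the same direction and a minimum of 0.5 on the log2 scale. The chromosome held 5 stretches, 2 of which rose and 3 of which fell. That is 2.07 per 100 tested IDs, against 0.28 to 1.28 on the other 18 chromosomes. Rises of 2-fold or more picked the chromosome, so this is a description. The rising stretches were the row in block 07 and Cz17g15030 to Cz17g15060. The longest falling stretch was Cz17g15170 to Cz17g16010, 7 IDs across the end of block 15 and the start of block 16, with log2 fold changes of -1.91 to -0.61, of which 1 was called. The others were Cz17g08030 to Cz17g08060, with 2 called of 4, and Cz17g09240 to Cz17g10020, with 3 called of 4. Without control replicate 1 there were 3 such stretches, and likewise 3 on log2(FPKM + 1).

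By calls, Cz17 held 1.66 runs of at least 3 neighbours per 100 tested IDs, against 0 to 1.84 on the other 18 chromosomes. The 4 runs were the 3 rows of rises above and Cz17g02010 to Cz17g02040, which fell, with the untested Cz17g02020 skipped. In the last, Cz17g02030 had 252, 246 and 228 CPM with levofloxacin, against 307, 354 and 353 CPM in controls (log2 fold change -0.53 ± 0.10, SE), and Cz17g02040 had 304, 311 and 285 CPM, against 489, 392 and 465 CPM (-0.64 ± 0.15, SE). None of its 3 genes was called without control replicate 3 or without any single levofloxacin library. Of the 240 pairs of neighbouring tested IDs on Cz17, 19 (7.92%) were called in the same direction and 5 in opposite directions. On the other 18 chromosomes the share called in the same direction ran from 2.63% to 8.80%, with a median of 4.61%. Cz18 had the highest.

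**Figure D3:**
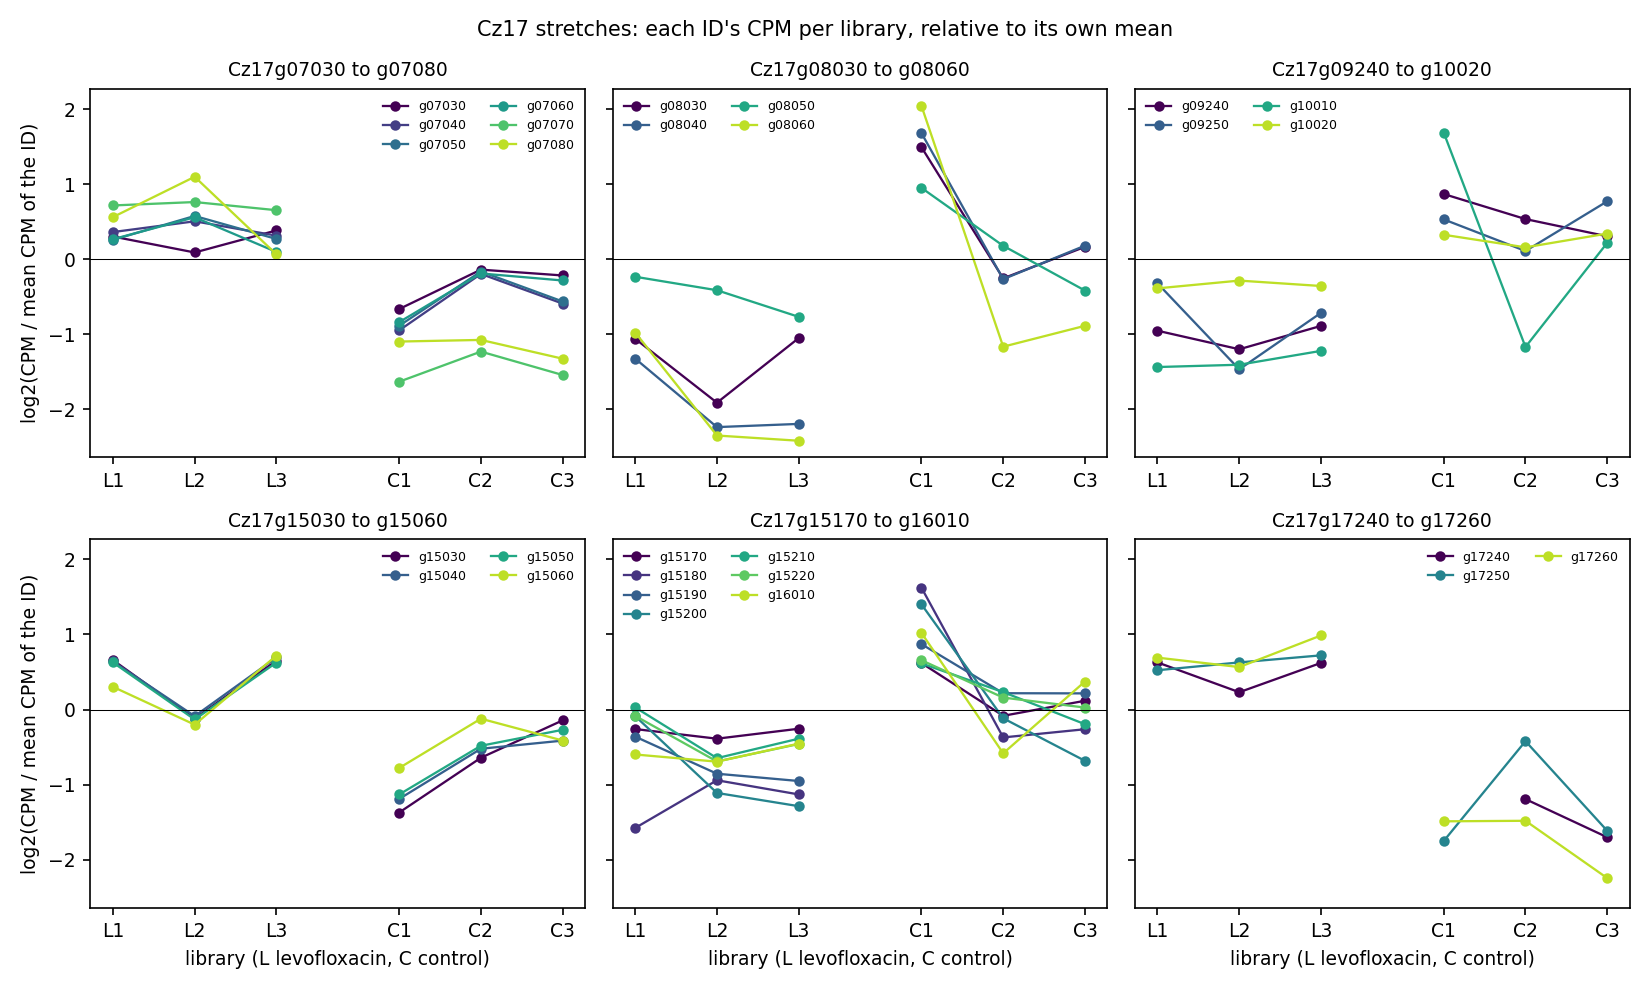
CPM of each ID in 6 stretches of Cz17, on a log2 scale relative to the ID's own mean, in levofloxacin libraries (L1 to L3) and control libraries (C1 to C3); a missing point is a library with 0 counts. Lines run in parallel in Cz17g15030 to Cz17g15050, which dip in L2, and in Cz17g08030 and Cz17g08040, which peak in C1, while in Cz17g17240 to Cz17g17260 the order of C1 and C3 is swapped in Cz17g17260 alone.

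Whether neighbours also vary together apart from the treatment was measured on deviations of log2 CPM from each group's own mean, which do not use the contrast. Over pairs of adjacent tested Cz17 IDs the mean correlation of these deviations was 0.21 (240 pairs, 6 libraries, 4 degrees of freedom a gene). It was 0.11 to 0.17 on the other 18 chromosomes, which had 216 to 1219 pairs each. The mean was 0.06 for Cz17 IDs 2 places apart and 0.01 for IDs 3 places apart, within the range of the other chromosomes. It lay slightly outside that range at 5 places (0.043, against a highest of 0.035) and at 20 places (-0.029, against a lowest of -0.026). All genes of a library share its depth and scaling, so these values are descriptions.

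The value was also taken within each group. With the 3 levofloxacin libraries alone the mean for adjacent Cz17 IDs was 0.20, against 0.06 to 0.14 on the other chromosomes. With the controls alone it was 0.16, within their range of 0.11 to 0.19. The first component of the deviations of all tested IDs held 53.3% of their variance and set control replicate 1 against control replicate 2. After its removal the mean for adjacent Cz17 IDs was 0.19, against 0.06 to 0.15 on the other chromosomes. Cz17 also left the range of the others at some larger distances. It did so at 10 places with levofloxacin alone, and at 5, 10, 20 and 50 places with the controls alone. In the controls the value at 50 places was 0.066, against a highest of 0.048.

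**Figure D4:**
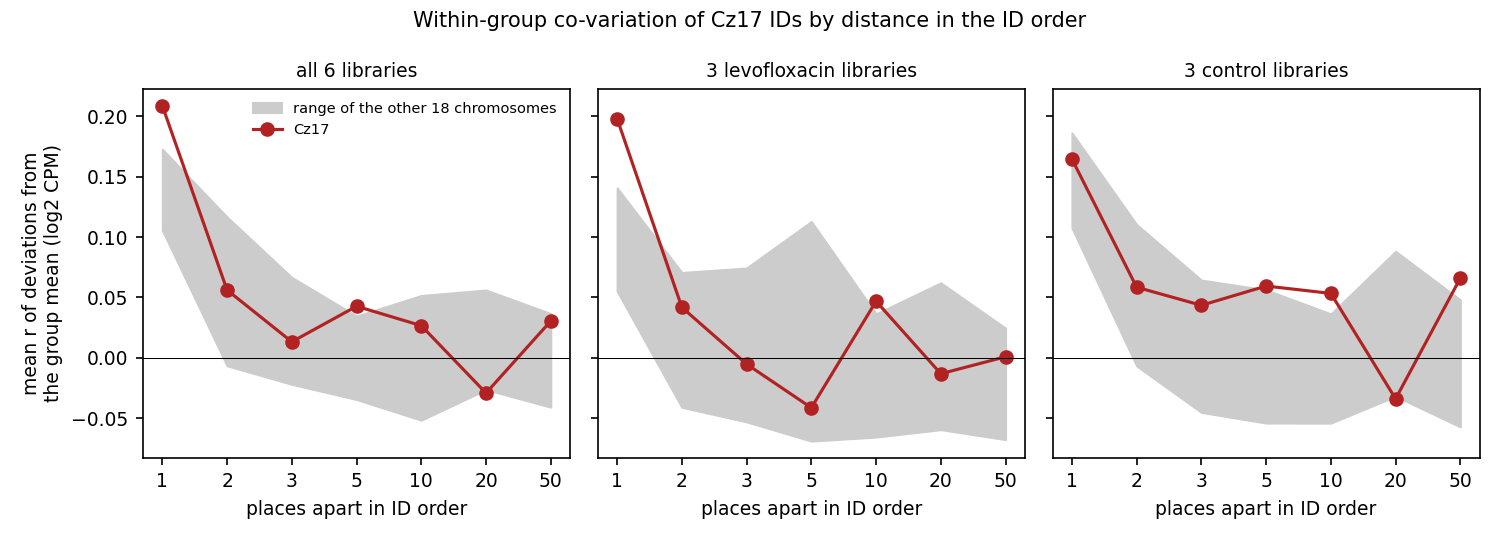
Mean correlation of deviations from the group mean (log2 CPM) between tested Cz17 IDs by distance in the ID order (red), with the range over the other 18 chromosomes (grey), for all 6 libraries, the levofloxacin libraries and the control libraries. Adjacent Cz17 IDs lie above the grey range in the first and second panels (0.21 and 0.20) and inside it in the third (0.16).

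The stretches differed in how tightly their members followed each other within groups. In Cz17g15030 to Cz17g15050 the 3 pairs had correlations of 0.96 to 0.99 over the 6 deviations. In Cz17g08030 to Cz17g08060 the mean was 0.86, and in Cz17g15170 to Cz17g16010 it was 0.78 over 21 pairs. In the row of 6 in block 07 it was 0.43, with pairs from -0.78 to 0.96. In Cz17g17240 to Cz17g17260 it was 0.13 over 3 pairs, which ran from -0.48 to 0.60.

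Expression levels on Cz17 were spread more widely upward than elsewhere. The upper quartile of mean FPKM over tested IDs was 96.9, against 41.1 to 65.2 on the other 18 chromosomes, and 92 of the 241 tested IDs (38.2%) lay above 48.8 FPKM, the upper quartile of all tested IDs. In every library the upper quartile was higher on Cz17: 89.3 to 92.3 FPKM with levofloxacin and 96.8 to 112 FPKM in controls, against 48.9 to 50.1 FPKM and 42.5 to 49.7 FPKM on the other chromosomes. The middle of the distribution depended on which IDs entered. Over tested IDs the median was 28.8 FPKM, the highest of the 19 chromosomes. Over all IDs it was 19.1 FPKM, against 19.2 FPKM for all IDs of the other chromosomes together, since Cz17 also had the lowest share of tested IDs (89.3%).

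**Figure D5:**
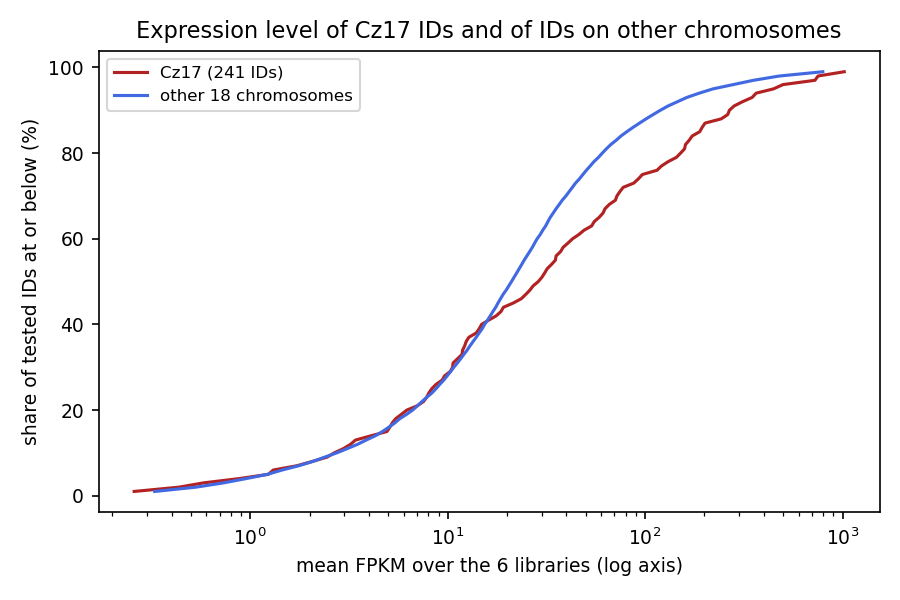
Cumulative share of tested IDs (%) by mean FPKM over the 6 libraries (log axis) for the 241 tested Cz17 IDs (red) and tested IDs of the other 18 chromosomes (blue). The curves meet at low levels, with lower quartiles of 8.31 FPKM on Cz17 and 7.08 to 10.1 FPKM on single other chromosomes, and part in the upper range, where the upper quartile was 96.9 FPKM on Cz17.

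The difference in level was larger among long genes. Among IDs with coding lengths of at least 2400 bases the median was 28.8 FPKM on Cz17 (36 IDs) and 14.6 FPKM on the other chromosomes (2188 IDs). Among IDs under 600 bases it was 31.0 FPKM (80 IDs) and 25.4 FPKM (3274 IDs). Coding lengths of tested Cz17 IDs ran from 219 to 8250 bases with a median of 984, against 1098 on the other chromosomes.

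IDs with few reads stood together in places. Of the 29 untested IDs, 12 lay in 3 runs of at least 3 neighbours: Cz17g02090 to Cz17g02120, Cz17g03210 to Cz17g04010 and Cz17g17010 to Cz17g17050. None of these 12 had more than 13 counts in a library. Cz17g02130, which was read with levofloxacin alone, follows directly on the first of these runs. Across adjacent tested IDs the levels had a Spearman correlation of 0.26 on Cz17 and 0.11 to 0.24 on the other chromosomes. These are correlations across genes, which share their libraries and do not replicate one another.

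The most abundant Cz17 transcripts per length did not pass the test in either direction. Cz17g13100 (597 bases) ranked 3 among all 15364 IDs by mean FPKM. It had 3788, 4534 and 4185 CPM in levofloxacin replicates 1, 2 and 3, against 8974, 3858 and 6364 CPM in control replicates 1, 2 and 3. Levofloxacin replicates 2 and 3 lay inside the range of the controls and replicate 1 just below the lowest, so the groups overlapped (log2 fold change -0.69 ± 0.32, SE; edgeR, adjusted p = 0.15). This ID alone held 10.8% to 13.0% of the Cz17 reads with levofloxacin and 11.4% to 23.5% in controls.

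Of the next in level, Cz17g03030 had 962 ± 58.6 FPKM with levofloxacin and 935 ± 107 FPKM in controls (SD, n = 3 each), with overlapping libraries and a log2 fold change of -0.01 ± 0.16 (SE). Cz17g00110 (5178 bases) and its neighbour Cz17g00120 (291 bases) had log2 fold changes of 0.29 ± 0.18 and 0.35 ± 0.22 (SE). Cz17g00110 had 5193, 3671 and 4667 CPM with levofloxacin, against 2752, 3759 and 4209 CPM in controls, and Cz17g00120 had 394, 279 and 385 CPM, against 181, 278 and 348 CPM. Both were lowest in levofloxacin replicate 2 and control replicate 1 within their groups. Neither was called, and in both the groups overlapped.

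The reads of all 270 IDs together came to 34961, 34866 and 34881 per 1e6 assigned reads with levofloxacin, against 38131, 33750 and 33902 in controls. The levofloxacin libraries were nearly equal and lay between the controls (mean difference -1.02% of the control mean; two-sided p = 1.0 by an exact permutation test, whose smallest possible p here is 0.10). Control replicate 1 held the highest total. Without it the difference was 3.18% and every levofloxacin library lay above the remaining controls.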

How the data were processed

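The authors deposited whole-number read counts per gene ID. They also deposited FPKM values, which divide each count by gene length and by the assigned reads of its library. Per the submitters' processing notes, the tools included HISAT2 2.0.6 and HTSeq 0.6.1. Genome build, annotation and strand setting: not given in the sources used here. Reads of overlapping, antisense or near-identical genes therefore cannot be told apart. Lengths were recovered from counts and FPKM, and since all 266 recovered on Cz17 are multiples of 3 they are called coding lengths.

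The whole count table entered edgeR 4.0.16 (R 4.3.3), with filterByExpr, TMM scaling, the quasi-likelihood F test and Benjamini-Hochberg adjustment over 14236 IDs at 0.05. The fit was tested on simulated data. The SE of a log2 fold change is its size over the square root of F. Deviations from group means used log2 CPM with a prior count of 2. Alternatives were other scalings and filters, DESeq2 1.42.0, limma 3.58.1 (voom on counts, and log2(FPKM + 1) or log2(FPKM + 0.1)), a replicate block, and each library left out.

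The members and rules were chosen with earlier results of these data known. Genes were named by rule: every rise of 2-fold or more and its direct neighbours, the 10 lowest falls of 2-fold or more, runs of at least 3 calls, the 5 highest mean FPKM, the 3 called rises on each side of 2-fold, and IDs at 0 in 1 group with at least 5 counts in each library of the other. The few named outside it are marked as such or are neighbours and members of the stretches. The floor for a total of 0 covers counting error only, as PCR reads are not independent molecules.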

Additional observations from a re-analysis of the deposited data

How the results depend on the processing

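With 1 library left out at a time there were 3 to 37 rises and 4 to 45 falls on Cz17, of which 3 to 16 and 4 to 28 were of 2-fold or more, with 0 to 5 runs of calls and 3 to 5 stretches by fold. Runs of calls numbered 7 with DESeq2 and 2 on log2(FPKM + 1) and on log2(FPKM + 0.1). Stretches by fold numbered 3 on log2(FPKM + 1), with or without a minimum mean of 1 FPKM. The median log2 fold change was 0.071 with library totals alone, 0.0056 with upper-quartile scaling, 0.079 on log2(FPKM + 0.1), 0.055 on log2(FPKM + 1), 0.071 on the same scale with a mean of at least 1 FPKM, and 0.0046 to 0.048 with libraries left out. The summed difference was -10.3% in FPKM, and -6.01% without the 5 most abundant IDs. The mean correlation of adjacent IDs was 0.198 in levofloxacin libraries, 0.165 in controls, 0.193 without the first component and 0.189 to 0.211 with libraries left out. A replicate block gave 31 rises and 36 falls, of which 14 and 22 were of 2-fold or more, and did not call Cz17g09020 (edgeR, adjusted p = 0.054) or Cz17g17240 (0.052). Deviations of libraries with the same number had correlations of 0.16, 0.05 and 0.04 over the tested IDs, so the numbers were not taken as pairs; levofloxacin replicate 3 was closer to control replicate 2 (0.10) than to control replicate 3. The called IDs named here kept their sign in every alternative run; the summed difference, which was not called, was 3.18% without control replicate 1. The causes were not tested. With 3 libraries a group, changes at a few counts a library were at the edge of what could be called.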
